A study of Mus musculus with 6 samples.

Results

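The genes described here are 45 interferon receptors, signal transducers and interferon-induced genes, the guanylate-binding protein (Gbp) family among them, in LSK cells of the bone marrow. They were listed by symbol, and 43 of the 45 symbols occur in a table of 53445 loci. All 43 passed the filter on low counts, as did 22032 loci in all. The symbols Ifi27 and Gbp7 do not occur in the table. When the list was set, Gbp11 was already known to be lower in these data, and the question was whether other interferon genes were lower too. The values of Gbp11 are therefore a description and lend no weight to the answer.

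LSK cells are Lin-Sca+Kit+ bone marrow cells, the fraction that holds the hematopoietic stem cells and the earliest progenitors. RNA-Seq was done on LSK cells sorted from 3 OgaVav-Cre and 3 wildtype mice, all female, on a C57BL/6 background and about 12 weeks old. OgaVav-Cre mice carry floxed alleles of Oga, which encodes the enzyme that removes O-GlcNAc from proteins, and Vav-iCre, which deletes them throughout the hematopoietic lineage, so the deletion is not limited to LSK cells. No interferon or infection was part of the design, and each library stands for 1 mouse.

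Interferons signal through paired receptor chains. Type I interferons bind IFNAR1 and IFNAR2, and interferon gamma binds IFNGR1 and IFNGR2. Type I signaling uses STAT2 and IRF9, parts of a complex that binds the interferon-stimulated response element (ISRE), and the response to interferon gamma runs mainly through the gamma-activated site (GAS). The induced genes encode RNA sensors, antiviral enzymes and 2 families of GTPases, the immunity-related GTPases and the guanylate-binding proteins, that act on membranes around intracellular microbes. In hematopoietic stem cells interferons are known to promote cycling, and Ly6a, which encodes the Sca-1 antigen of the sort, is itself an interferon-induced gene.

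The ISRE letters were looked for in the RefSeq promoters (GRCm38.p6) of the members, from 250 bases before to 50 bases after each start. The letters searched were GAAA, any 2 bases and GAAA again, which on the other strand read TTTC, any 2 bases and TTTC. Of the 43 members, 32 have a promoter entry, and 17 of these (53.1%) hold the letters, against 3.99% of 27025 genes. The GAS letters, TTCNNNGAA, which read the same on both strands, were in 11 of the 32 (34.4%) and in 9.55% of all genes. A match is a description of the letters and not a binding site. Members without an entry are Dhx58, Oas2, Usp18, Mx1, Mx2, Iigp1, Gbp4, Gbp8, Gbp9, Gbp10 and Gbp11. The windows below show members that the results return to, each with 9 bases on both sides of the motif in capitals and read 5′ to 3′ on the strand of the gene. In Isg15, Bst2 and Gbp3 the letters also occur at overlapping positions of the same window, which are not marked. The first 3 belong to genes with more RNA in OgaVav-Cre cells at an unadjusted p below 0.05, Irgm2 is the neighbor of Igtp, and the last 3 are Gbp genes of chromosome 3.

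Isg15 (chr4:156200872-156200899, minus strand): taggaaaagGAAACCGAAAcagaaaata

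Bst2 (chr8:71537578-71537605, minus strand): caggaaaatGAAACTGAAAggctgcagt

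Igtp (chr11:58199513-58199540, plus strand): ctaggaactGAAACTGAAAgctgttcgg

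Irgm2 (chr11:58214904-58214931, plus strand): ccaggaactGAAACTGAAAgctgttcgg

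Gbp2 (chr3:142620595-142620622, plus strand): ctcttttagTTTCACTTTCactgtctta

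Gbp3 (chr3:142559990-142560017, plus strand): aggacacagTTTCAGTTTCtatttccca

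Gbp6 as listed in the table (chr3:142530274-142530301, plus strand): tgtgtgcagTTTCAGTTTCagttctcca

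The windows of Igtp and Irgm2 share 27 of 28 bases. The motif lies on the strand of the gene in Isg15, Bst2, Igtp and Irgm2 and on the opposite strand in the 3 Gbp genes. Of the 6 members with more RNA in OgaVav-Cre cells at an unadjusted p below 0.05, 5 have a promoter entry and 3 hold the ISRE letters. The median log2 fold change of OgaVav-Cre over wildtype was 0.13 in the 17 members that hold them and 0.05 in the 15 that do not. It was above 0 in 14 of the 17 and in 13 of the 15, beside 50.5% of all loci tested. These counts are from the edgeR fit and depend on the scaling. On the authors' RPKM (reads scaled to locus length and library), at a pseudocount of 0.1, 19 of all 43 members were above 0, beside 41.8% of all loci. The split by ISRE letters was not made on RPKM.

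The libraries held between 19318056 and 27064389 counted reads, and 3 reads, taken as the floor, correspond to 0.109 to 0.156 counts scaled to library size (CPM, reads per 1e6 reads). Mgea5, the symbol of Oga in the table, was at 4.01 to 4.61 CPM in OgaVav-Cre and at 116 to 154 CPM in wildtype libraries, a log2 fold change of -5.01 ± 0.17 (SE) with an edgeR adjusted p of 5.88e-05. Of the sort genes, Kit was at 251 to 542 CPM in OgaVav-Cre against 372 to 602 CPM in wildtype, and Ly6a at 100.3 to 218 CPM and 42.3 to 122 CPM. The Ly6a log2 fold change was 1.03 ± 0.46 (SE) with an adjusted p of 0.483. RNA of genes listed as markers of other cell types was in every library, in unequal amounts. Which cells this RNA came from was not tested. All 5 plasmacytoid dendritic cell markers were highest in OgaVav-Cre replicate 3, where they summed to 677 CPM, against 72.6 and 87.4 CPM in the other OgaVav-Cre libraries and 79.8 to 181 CPM in wildtype. The 4 B cell markers summed to 128 to 689 CPM in OgaVav-Cre against 91.2 to 477 CPM in wildtype, and the 5 T and NK cell markers to 9.14 to 61.3 CPM and 22.9 to 63.7 CPM. The 7 plasma cell markers, immunoglobulin genes included, summed to 11840 to 111400 CPM in OgaVav-Cre and 12720 to 55460 CPM in wildtype, and all 7 were highest in OgaVav-Cre replicate 1. The 5 neutrophil markers summed to 51.8 to 1227 CPM and 78.2 to 573 CPM, the 4 erythroid markers to 217 to 2279 CPM and 403 to 686 CPM, and both sums were highest in OgaVav-Cre replicate 3. The 6 monocyte and macrophage markers summed to 143 to 338 CPM and 165 to 246 CPM. In sorted cells, fewer cells of a type and less RNA per cell cannot be told apart.

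The cutoffs for a call were an edgeR adjusted p below 0.05 together with an absolute log2 fold change over 1, and no interferon gene of the list passed them. Over all loci tested, 0.0272% passed as lower and 0.00454% as higher, 7 loci in all. At an unadjusted p below 0.05, 2 members were lower in OgaVav-Cre, Gbp11 and Gbp10, and 6 were higher, Irf7, Oasl1, Isg15, Usp18, Bst2 and Igtp. The background shares were 6.27% lower and 4.38% higher, so in this fit the 6 of 43 stand above the background share and the 2 of 43, of which Gbp11 was known beforehand, below it. The number higher was 3 on RPKM at a pseudocount of 0.1, and with a library left out it ran from 2 to 8. The background shares of those fits are not given here. By the DESeq2 Wald test with the same cutoffs 1 member, Gbp11, was lower and 0 were higher, where 0.222% and 0.096% of loci passed. By that test 2 members were lower and 7 higher at an unadjusted p below 0.05, where the background shares were 3.63% and 3.09%. These DESeq2 shares are over 36466 loci, without the filter on low counts that all members passed. They are therefore not matched to the members, and nothing is read from the distance. Of the members, 31 had a log2 fold change above 0 and 12 below 0, with a median of 0.06 beside 0.0041 for all loci tested, of which 50.5% were above 0. On the authors' RPKM, which are scaled by another divisor, 19 members were above and 24 below 0 at a pseudocount of 0.1, and 41.8% of all loci were above 0. The medians there were -0.01 for members and -0.06 for all loci. The median of members was above that of all loci by 0.056 in the main fit and by 0.052 on RPKM. All libraries of 1 genotype lay wholly beyond the other genotype in 1 member on the lower side, Gbp11, and in 6 on the higher side, Irf7, Oasl1, Isg15, Usp18, Igtp and Gbp3. Among all loci tested these shares were 9.97% and 7.5%.

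**Figure D1:**
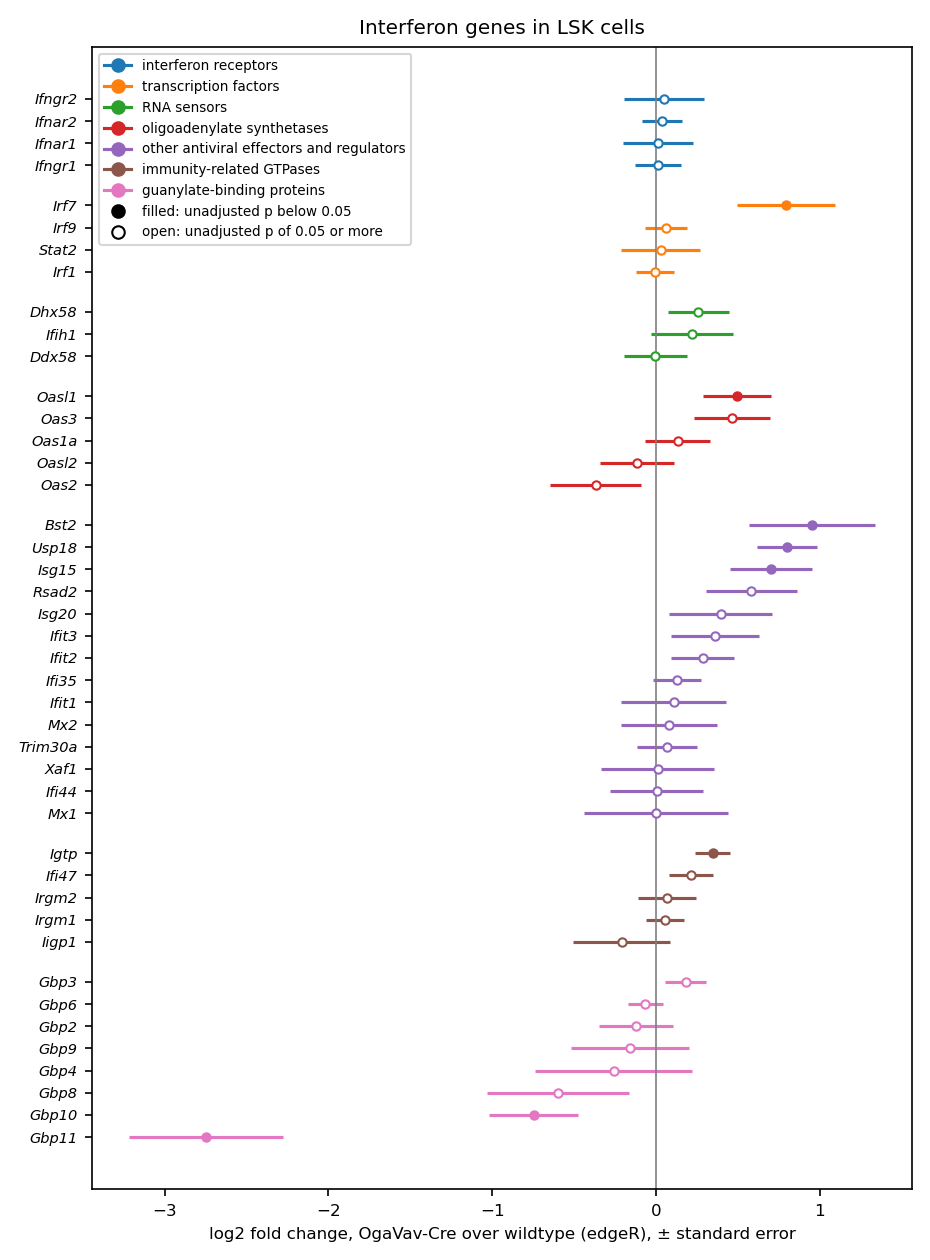
Log2 fold change of OgaVav-Cre over wildtype (horizontal axis, edgeR, bars are the standard error) for the 43 interferon genes in the table, grouped by role. Filled points have an unadjusted p below 0.05, 6 of them right and 2 left of 0, and 7 of the 8 Gbp members lie below 0.

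The 3 interferon ligand genes looked at were hardly seen. Ifnb1 and Ifna4, both type I interferon genes, had 0 reads in each of the 6 libraries. Ifng, the gene of interferon gamma, had 9, 1 and 10 reads in OgaVav-Cre against 14, 0 and 3 reads in wildtype replicates 1, 2 and 3, which leaves no difference detectable at this depth. These 3 genes were not tested and are named after their values were seen.

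All 4 receptor genes were well above the floor and differed little between genotypes. Ifnar1 had 103, 107 and 175 CPM in OgaVav-Cre against 120, 120 and 141 CPM in wildtype. Ifnar2 had 91.4, 98.2 and 114 CPM in OgaVav-Cre against 100.1, 101 and 93.7 CPM in wildtype. Ifngr1 had 79.8, 96.0 and 110 CPM in OgaVav-Cre against 99.2, 92.3 and 91.2 CPM in wildtype. The genotypes overlapped in each of these, and OgaVav-Cre replicate 3 was the highest OgaVav-Cre library each time. Ifngr2, the signaling chain of the interferon gamma receptor, had 32.8, 28.8 and 47.4 CPM in OgaVav-Cre against 35.4, 26.1 and 43.7 CPM in wildtype. The 4 log2 fold changes were between 0.01 and 0.05 with standard errors of 0.12 to 0.25 and edgeR adjusted p of 0.924 to 0.987. Without OgaVav-Cre replicate 3 they were between -0.27 and -0.05, and on the RPKM scale they were between -0.09 and -0.02 at a pseudocount of 0.1.

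Among the transcription factors, Irf1, Irf9 and Stat2 had log2 fold changes of -0.01, 0.06 and 0.03, and Irf7 stood apart. Irf1, an early target of interferon gamma, had 82.4 to 98.2 CPM in OgaVav-Cre against 86.8 to 95.3 CPM in wildtype. Irf9, the DNA-binding part of the type I complex, was at 85.3 to 89.5 CPM and 71.3 to 91.9 CPM. Stat2, its partner, was at 41.3 to 83.1 CPM and 55.0 to 58.7 CPM, and OgaVav-Cre replicate 3 was the highest library. These 3 factors had edgeR adjusted p between 0.884 and 0.988.

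Irf7, the factor that amplifies the type I response, had 48.6, 39.0 and 90.6 CPM in OgaVav-Cre against 30.7, 38.8 and 33.2 CPM in wildtype. OgaVav-Cre replicate 3 was far above the others, while the lowest OgaVav-Cre library (39.02) and the highest wildtype library (38.80) were almost level. The log2 fold change was 0.79 ± 0.30 (SE), with an unadjusted p of 0.0295 and an adjusted p of 0.444 by edgeR. Bst2, the gene of tetherin, which holds budding viruses at the cell surface, had the same outline with 45.1, 38.3 and 109.8 CPM in OgaVav-Cre against 39.6, 28.5 and 31.7 CPM in wildtype. Its genotypes overlapped, and its log2 fold change was 0.95 ± 0.38 (SE) with an unadjusted p of 0.0389 and an adjusted p of 0.453. Both Irf7 and Bst2 are strongly expressed in plasmacytoid dendritic cells, whose 5 markers were also highest in OgaVav-Cre replicate 3, at 677 CPM in sum. Without that library the log2 fold changes were 0.36 for Irf7 and 0.33 for Bst2, with unadjusted p of 0.0699 and 0.112. The summed neutrophil, erythroid and B cell markers were highest in the same library. The part of RNA from any of these cells in either value was not tested. On the length-scaled RPKM, Bst2 and Ifi47 were the most abundant of the 43 members, with Bst2 first in OgaVav-Cre (means of 72.0 and 49.3), where replicate 3 reached 126, and Ifi47 first in wildtype (44.3 against 38.6).

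**Figure D2:**
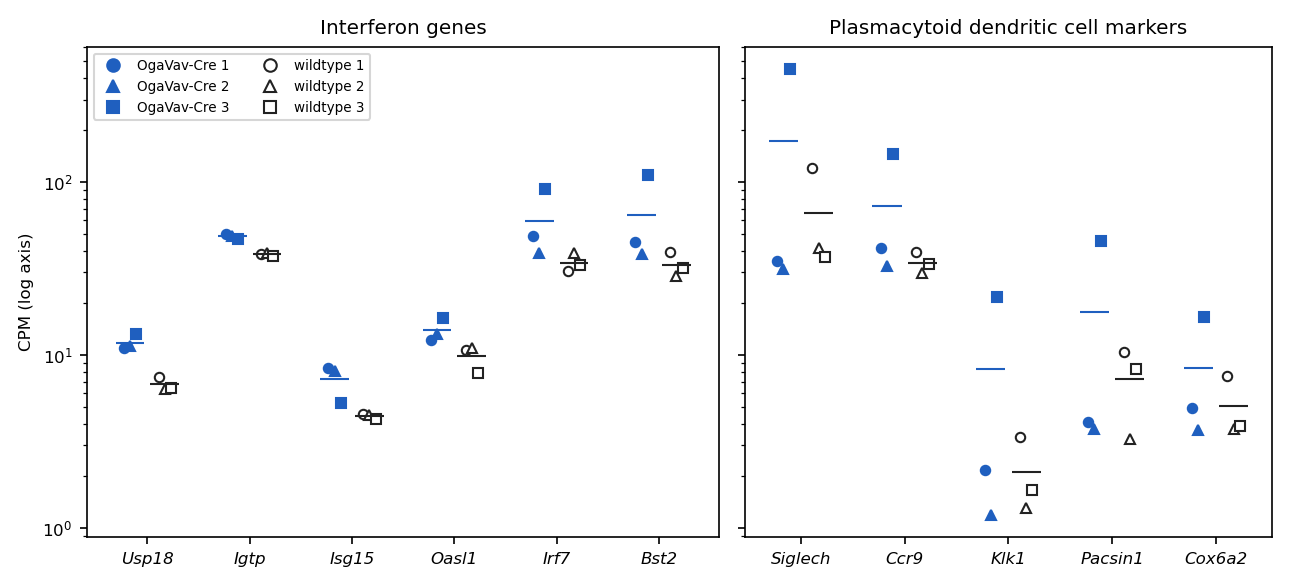
CPM (log axis) of the 6 interferon genes with more RNA in OgaVav-Cre at an unadjusted p below 0.05 (left) and of 5 plasmacytoid dendritic cell markers (right); each point is a library, its shape the replicate number, and lines are group means. Irf7, Bst2 and all 5 markers are highest in OgaVav-Cre replicate 3, while Usp18 and Igtp show 3 OgaVav-Cre libraries close together above the 3 wildtype libraries.

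In Usp18 and Igtp the OgaVav-Cre libraries lay close together and all above the wildtype libraries. Usp18, the protease that removes ISG15 from proteins and restrains type I receptor signaling, had 10.95, 11.28 and 13.17 CPM in OgaVav-Cre against 7.50, 6.38 and 6.43 CPM in wildtype. The lowest OgaVav-Cre library was above the highest wildtype library, and the means were 11.8 ± 1.2 and 6.77 ± 0.63 CPM (SD, n = 3 each). The log2 fold change was 0.80 ± 0.19 (SE), with an unadjusted p of 0.00275 and adjusted p of 0.384 by edgeR and 0.0741 by DESeq2, the lowest of 16 alternatives that ranged up to 0.862. Usp18 overlaps the locus LOC100504054 on the opposite strand, as Irf7 does Phrf1 and Oasl1 does ENSMUSG00000087477, and whether the counting used strand is not stated in the sources used here.

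Isg15, the ubiquitin-like protein on which Usp18 acts, had 8.38, 8.11 and 5.25 CPM in OgaVav-Cre against 4.55, 4.51 and 4.27 CPM in wildtype. The wildtype libraries lay close together and OgaVav-Cre replicate 3, the highest for Irf7 and Bst2, was here the lowest OgaVav-Cre library. The log2 fold change was 0.70 ± 0.25 (SE), with an unadjusted p of 0.0232 and an adjusted p of 0.428 by edgeR. With the immunoglobulin share of each library as a covariate it was 0.57 with an unadjusted p of 0.0632. Immunoglobulin RNA was 9.88, 4.14 and 1.17% of counts in OgaVav-Cre replicates 1, 2 and 3, in the order of Isg15. In wildtype replicates 1, 2 and 3 it was 2.05, 5.48 and 1.36%, which is not the order of Isg15. The part of immunoglobulin RNA in the Isg15 value was not tested. Isg15 overlaps Plekhn1 on the same strand. In the group of 14 antiviral effectors and regulators, to which Isg15, Usp18 and Bst2 belong, all 14 log2 fold changes were above 0 (50.5% of all loci tested). They ran from 0.0002 to 0.95 with a median of 0.21, and 3 had an unadjusted p below 0.05 (4.38% of all loci tested were higher at that level). On RPKM at a pseudocount of 0.1, 10 of the 14 were above 0, beside 41.8% of all loci. The group also holds Ifit1, Ifit2, Ifit3, Isg20, Mx1, Mx2, Rsad2, Xaf1, Trim30a, Ifi35 and Ifi44, none of which passed that level.

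Of the RNA sensors, Ddx58, which encodes RIG-I and had the highest RPKM of the 3, was at 68.2 to 93.9 CPM in OgaVav-Cre against 62.0 to 95.6 CPM in wildtype, a log2 fold change of -0.003. Dhx58, which encodes the regulator LGP2, was at 21.8 to 27.5 CPM and 17.1 to 25.4 CPM, a log2 fold change of 0.26 with an edgeR adjusted p of 0.627. Ifih1, the third sensor, lay between these at 0.22. The 5 genes of the next group encode oligoadenylate synthetases, whose products activate RNase L, and the synthetase-like proteins of Oasl1 and Oasl2. Of these genes, Oasl2 and Oas2 had the highest mean RPKM over the 6 libraries. Their means were 6.14 and 5.50 in OgaVav-Cre and 6.98 and 7.48 in wildtype. In OgaVav-Cre, Oas3 was above Oas2 with a mean of 6.10. Oasl2 was at 37.2 to 51.5 CPM in OgaVav-Cre against 37.0 to 65.4 CPM in wildtype. Oasl1 had 12.2, 13.2 and 16.3 CPM in OgaVav-Cre against 10.68, 10.997 and 7.91 CPM in wildtype, with no overlap. Its log2 fold change was 0.50 ± 0.21 (SE), the unadjusted p was 0.0443 and the adjusted p was 0.460 by edgeR. The other 3, Oas1a, Oas2 and Oas3, had log2 fold changes of 0.13, -0.37 and 0.46, none at an unadjusted p below 0.05.

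The immunity-related GTPases, which are induced mainly by interferon gamma, had 4 of 5 log2 fold changes above 0 (50.5% of all loci tested), and 2 of 5 on RPKM at a pseudocount of 0.1 (41.8% of all loci). Igtp, also called Irgm3, had 50.3, 48.8 and 46.7 CPM in OgaVav-Cre against 38.2, 39.0 and 37.3 CPM in wildtype. Both genotypes were tight, with means of 48.6 ± 1.8 and 38.2 ± 0.85 CPM (SD, n = 3 each). The log2 fold change was 0.35 ± 0.11 (SE), the unadjusted p was 0.0131 and the adjusted p was 0.412 by edgeR. Igtp overlaps the locus AK052469 on the same strand. Ifi47, the most abundant of the group by RPKM, had 85.3, 110.3 and 97.1 CPM in OgaVav-Cre against 91.8, 79.9 and 80.2 CPM in wildtype. The genotypes overlapped for Ifi47, and its log2 fold change was 0.22 at an adjusted p of 0.577. The Ifi47 locus overlaps 4 other loci, 2 of them on the opposite strand. Irgm2, the neighbor of Igtp with the near-identical ISRE window, had a log2 fold change of 0.07, Irgm1 had 0.06 and Iigp1 had -0.21.

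Of the 8 guanylate-binding protein members, 7 had log2 fold changes below 0, with a median of -0.21. Of the 35 members outside this family, 30 were above 0, with a median of 0.08, beside 50.5% of all loci tested. On RPKM, at a pseudocount of 0.1, the Gbp count was again 7 of 8 below 0, but members outside it were divided, 18 above and 17 below 0, beside 41.8% of all loci above 0. The difference between the groups was not tested, and Gbp11 is among the 7. The genes form a cluster on chromosome 5 and another on chromosome 3, and the members with the lower values were those on chromosome 5 (mm9 coordinates, as in the table). Across the chromosome 5 span from 105506650 to 105775491 the table lists 7 loci, all with log2 fold changes below 0, 3 of them at an unadjusted p below 0.05 (background share 6.27%). These 3 are Gbp11, known beforehand, and Gbp10 and Mpa2l, which share most of their sequence, and other loci of the 7 overlap, so they are neither 7 nor 3 separate measurements and nothing is read from the count. Within 500 kb outside that span, 18 loci were tested, with 1 lower and 1 higher at that level. On chromosome 3, none of the 4 loci tested in the span from 142193302 to 142300972 was at that level.

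**Figure D3:**
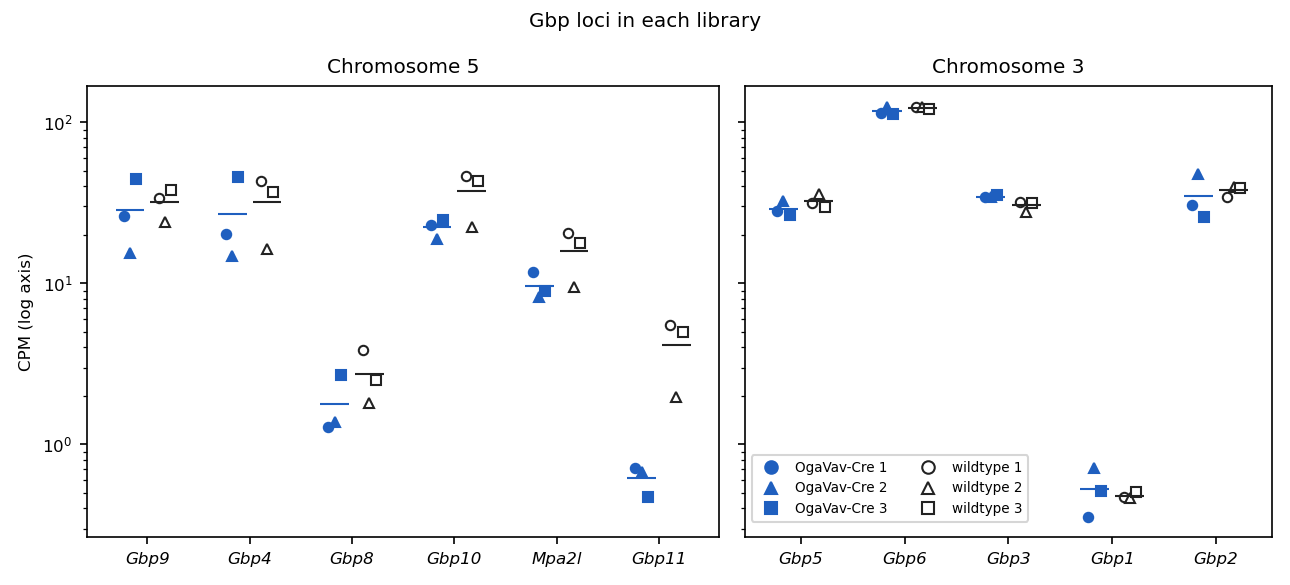
CPM (log axis) of Gbp loci in order along chromosome 5 (left) and chromosome 3 (right); each point is a library, its shape the replicate number, and lines are group means. Gbp11 separates the genotypes, Gbp10 and Mpa2l are low in wildtype replicate 2 as well as in OgaVav-Cre, and the chromosome 3 loci overlap between genotypes except Gbp3.

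Gbp11 (chr5:105752045-105775491, minus strand, 11 exons) had 16, 17 and 13 reads in OgaVav-Cre against 118, 38 and 118 reads in wildtype. These correspond to 0.709, 0.673 and 0.474 CPM and to 5.53, 1.97 and 4.99 CPM. The OgaVav-Cre libraries were close together and above the floor, and wildtype replicate 2 was well below the other wildtype libraries but above every OgaVav-Cre library. The means were 0.619 ± 0.127 and 4.16 ± 1.92 CPM (SD, n = 3 each). The log2 fold change was -2.75 ± 0.47 (SE), 6.71-fold lower, with adjusted p of 0.253 by edgeR and 6.39e-05 by DESeq2, the lowest of 16 alternatives that ranged up to 0.862. By RPKM, Gbp11 was the lowest of the 43 members in OgaVav-Cre, at 0.193, and at 1.38 in wildtype was above Mx2 (1.02) and the locus listed as Gbp8 (0.768).

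Gbp10 (chr5:105643926-105668552, minus strand) had 23.1, 19.0 and 24.6 CPM in OgaVav-Cre against 46.4, 22.5 and 42.9 CPM in wildtype. Wildtype replicate 2 lay among the OgaVav-Cre libraries, so the genotypes overlapped. The log2 fold change was -0.75 ± 0.27 (SE), with an unadjusted p of 0.0254 and an adjusted p of 0.437 by edgeR. Without wildtype replicate 2 the unadjusted p was 0.000696, and without wildtype replicate 1 the log2 fold change was -0.56 with an unadjusted p of 0.0955. The next locus, listed as Mpa2l (chr5:105699721-105722718, gene ID 100702), carries the symbol Gbp6 today and is not one of the 43 by symbol. Mpa2l had 11.8, 8.19 and 9.01 CPM in OgaVav-Cre against 20.4, 9.44 and 17.7 CPM in wildtype, a log2 fold change of -0.72 ± 0.30 (SE) with an unadjusted p of 0.0456. Gbp10 and this gene are near-identical: of the windows of 50 bases in annotated Gbp10 transcripts, the length of a read, 76.1% also occur in transcripts of present-day Gbp6. The 2 loci may therefore hold the same reads or reads of each other, and they are given as 1 uncertain pair. Their summed CPM were 34.9, 27.2 and 33.6 in OgaVav-Cre and 66.9, 32.0 and 60.6 in wildtype. For Gbp11, 34.5% of the windows occur in another gene.

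Gbp4, Gbp9 and Gbp8, at the other end of the chromosome 5 cluster, varied more between libraries of 1 genotype than between genotypes. Gbp4 had 20.1, 14.7 and 45.7 CPM in OgaVav-Cre against 43.0, 16.2 and 37.1 CPM in wildtype. Gbp9 had 26.1, 15.5 and 44.3 CPM in OgaVav-Cre against 33.6, 24.0 and 38.2 CPM in wildtype. In both genes OgaVav-Cre replicate 3 and wildtype replicates 1 and 3 were the high libraries. The log2 fold changes were -0.26 ± 0.48 and -0.16 ± 0.36 (SE), with edgeR adjusted p of 0.866 and 0.894. The locus listed as Gbp8 by the longest-locus rule has 2 exons, lies inside the span of Gbp4 and had 29, 35 and 74 reads in OgaVav-Cre against 82, 35 and 59 reads in wildtype, a log2 fold change of -0.60 with an adjusted p of 0.624. The shorter Gbp8 locus, with 11 exons outside that span, had a log2 fold change of -0.36 with an adjusted p of 0.753.

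The summed CPM of Gbp4, Gbp8 and Gbp9 were 47.5, 31.5 and 92.7 in OgaVav-Cre and 80.5, 42.1 and 77.8 in wildtype. Gbp8 enters this sum as the 2-exon locus inside the span of Gbp4, so some reads may be counted for both genes. The 11-exon Gbp8 locus, which had more reads in every library, is left out of it. Both the sum and the 11-exon locus were highest in OgaVav-Cre replicate 3 and wildtype replicates 1 and 3. The same 3 libraries held the most B cell and the most T and NK cell marker RNA. Plasma cell markers ran the other way, lowest in OgaVav-Cre replicate 3 and wildtype replicate 3. The 5 T and NK cell markers were not alike: the T cell genes Cd3e, Cd3g and Cd8a were highest in OgaVav-Cre replicate 3, and the NK cell genes Ncr1 and Klrb1c in wildtype replicate 1. Ncr1, named with the others after their values were seen, had 6.34, 2.37 and 12.4 CPM in OgaVav-Cre against 30.7, 9.44 and 17.5 CPM in wildtype, and Klrb1c had 3.41, 4.27 and 13.4 CPM against 23.2, 8.20 and 13.1 CPM. Like Gbp10, Mpa2l and Gbp11, Ncr1 was highest in wildtype replicates 1 and 3, and Klrb1c was not. Gbp11 did not follow the B cell markers in OgaVav-Cre replicate 3, where those were highest and Gbp11 was lowest. The part of such cells in the Gbp values was not tested.

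The Gbp genes of chromosome 3 were steadier. The locus listed as Gbp6 (gene ID 229900, Gbp7 today) was the most abundant Gbp member by RPKM, with 115, 125 and 113 CPM in OgaVav-Cre against 124, 124 and 121 CPM in wildtype, a log2 fold change of -0.06 ± 0.11 (SE). Gbp2 had 30.8, 47.4 and 25.7 CPM in OgaVav-Cre against 34.5, 39.8 and 38.9 CPM in wildtype, a log2 fold change of -0.12 ± 0.23 (SE). Gbp3 had 34.2, 34.2 and 35.2 CPM in OgaVav-Cre against 32.1, 27.6 and 31.7 CPM in wildtype, a log2 fold change of 0.18 ± 0.12 (SE). The genotypes did not overlap for Gbp3, but its edgeR adjusted p was 0.609. Of 2 further Gbp genes on this chromosome that are not members, Gbp5 was at 26.4 to 32.3 CPM and 29.7 to 36.1 CPM and Gbp1 at 0.355 to 0.712 CPM and 0.467 to 0.508 CPM, with log2 fold changes of -0.16 and 0.13. The 3 members on chromosome 3 share between 2.03% and 3.92% of their windows of 50 bases with another gene.

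**Figure D4:**
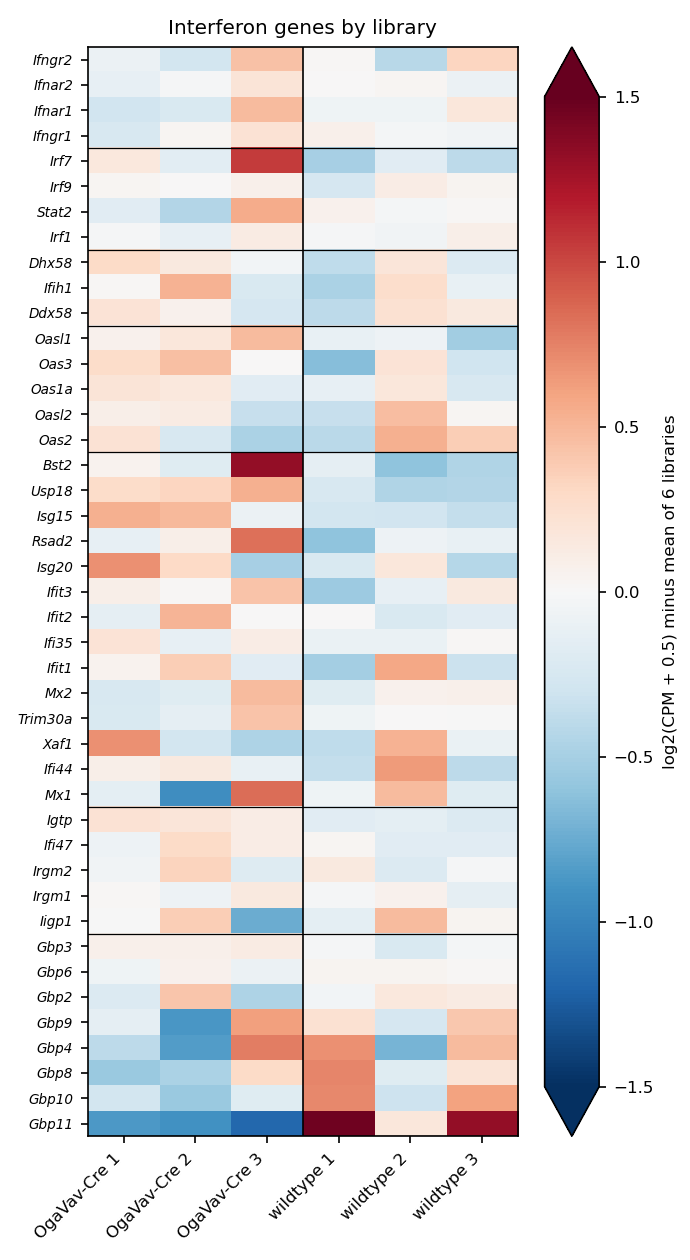
Each of the 43 interferon genes (rows, in blocks by role) in each library (columns), as log2(CPM + 0.5) minus the mean of the 6 libraries. Irf7 and Bst2 are highest in OgaVav-Cre replicate 3, and Gbp4 and Gbp9 are high in OgaVav-Cre replicate 3 and wildtype replicates 1 and 3.

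The median deviation of the 43 members from their mean on the log2 scale was 0.02, 0.03 and 0.11 in OgaVav-Cre and -0.11, -0.03 and -0.03 in wildtype. The 5 Gbp members of chromosome 5 had median deviations of -0.39, -0.84 and 0.29 in OgaVav-Cre and 0.72, -0.25 and 0.47 in wildtype, which overlap. For the 3 Gbp members of chromosome 3 the medians stayed between -0.09 and 0.08.

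A pair of lists of interferon genes outside the members held no call either. Of 16 genes of interferon signaling, 13 were tested and 0 passed the edgeR cutoffs. At an unadjusted p below 0.05, 1 was lower, the type I interferon inducer Irf3, with 42.1 to 48.4 CPM in OgaVav-Cre against 55.6 to 64.0 CPM in wildtype and a log2 fold change of -0.36, and 0 were higher. The feedback inhibitor Socs1 was at 7.60 to 11.6 CPM and 4.78 to 6.94 CPM, a log2 fold change of 0.58 with an unadjusted p of 0.0539. Of 30 further interferon-induced genes, all tested, 0 passed the cutoffs. Herc6, with a log2 fold change of -0.56, and Ifi203, with -0.47, were lower at that level, and the immunoproteasome subunit Psmb8, with 0.35, was higher. Over all loci tested, 6.27% were lower and 4.38% higher at an unadjusted p below 0.05. The median log2 fold changes of the lists were 0.06 and 0.09. By DESeq2, the adjusted p of Irf3, Socs1, Herc6, Ifi203 and Psmb8 were 0.492, 0.479, 0.208, 0.284 and 0.463.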

How the data were processed

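LSK cells were sorted from 6 mice, at least 20000 cells a sample. The authors prepared poly(A) libraries, sequenced single-end 50 bp reads, mapped these against mm9 and counted each locus using Genomatix (CASAVA 1.8.2 is named in the submitters' processing notes; strand use and annotation version are not given in the sources used here). The deposited counts are raw reads per locus. The deposited RPKM are the same reads scaled by the authors to locus length and library. The authors' fold changes, p-values and normalized expression columns were not used.

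Counts were fitted in R 4.3.3 with edgeR 4.0.16 (TMM, filterByExpr, quasi-likelihood test, Benjamini-Hochberg over all 22032 loci tested; CPM use TMM library sizes), and the code was tested on simulated data. DESeq2 1.42.0 and limma 3.58.1 served as alternatives. Figures used Python 3.11.15 and matplotlib 3.10.9. P-values measure the spread between 3 mice a genotype; an exact permutation test of 3 against 3 cannot go below 0.1. Floors cover counting error only. No same-genotype pair of libraries agreed within sampling noise (chi-square per locus 30.5 to 225).

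Members were matched by symbol, the longest locus where a symbol repeats. Shared windows came from GENCODE vM1 transcripts. Of the members, 16 overlap another locus, 9 on the opposite strand. Values are printed for all Gbp genes, the receptors, Stat2, Irf1, Irf7, Irf9, members at an unadjusted p below 0.05, the most abundant and smallest-p member of each role, Mgea5, Ly6a, Kit and the 3 smallest-p genes of each outside list; other genes were named after their values were seen, and 1 gene is not reported here. Members and lists were chosen with earlier results of these data known.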

Additional observations from a re-analysis of the deposited data

How the results depend on the processing

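No interferon member passed as higher under any of the 16 alternatives, and none as lower except Gbp11 with DESeq2, at -2.74 unshrunken and -1.5 shrunken (1 member lower in each). Loci called in the whole table numbered 7, against 21 without a count filter, 4 with at least 10 reads in every library, 116 (81 lower, 35 higher) and 66 with DESeq2 unshrunken and shrunken, 4 with RPKM at a pseudocount of 1, and 3 to 9 with a library left out. Members higher at an unadjusted p below 0.05 were 6, but 3 on RPKM at pseudocounts of 0.1 and 1 and 2 to 8 with a library left out (2 without wildtype replicate 3, 3 without wildtype replicate 1). Members lower at that level were 2, and 1 to 2 with a library left out (1 without OgaVav-Cre replicate 1 or wildtype replicate 3), Gbp11 among them each time. The median member was 0.06, but -0.0126 and -0.0101 on RPKM, where all loci had medians of -0.0646 and -0.0407. With a library left out the median member was 0.0539 to 0.1238. Non-overlapping members were 1 to 6 lower (6 without OgaVav-Cre replicate 3) and 7 to 10 higher (10 without wildtype replicate 2), where 2 against 3 libraries overlap less easily. The shares of all loci in these smaller sets are not given here, so nothing is read from the counts. The causes were not tested.

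Gbp11 and Usp18 were at an unadjusted p below 0.05 in all 16 alternatives, Igtp in 15, Isg15 in 12, Irf7 and Gbp10 in 11, and Bst2 and Oasl1 in 9. Gbp11 ranged in log2 fold change from -3.08 to -0.95, the latter on RPKM at a pseudocount of 1, and Usp18 from 0.60 to 0.88. With present-day gene IDs, an alternative added after the data were seen, 45 members gave 0 calls, 3 lower and 6 higher at that level. With the immunoglobulin share (1.17 to 9.88%) as a covariate, Gbp10 had -0.62 and Isg15 0.57, with unadjusted p of 0.0715 and 0.0632, and the other 6 members named here stayed below 0.05. In that fit 2 members were lower and 6 higher at an unadjusted p below 0.05, so each count holds a member beyond those named. The replicate block gave 0 calls, 2 lower and 7 higher at that level and a median of 0.0549; the deviations of same-numbered libraries had correlations of -0.0814, 0.26 and 0.316, and OgaVav-Cre replicate 1 correlated best with wildtype replicate 2 (0.206), so the numbers were not taken to pair the mice.

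Signs changed in 13 of 35 named genes, all at unadjusted p above 0.05 in the main analysis. Ddx58 was at 0.0108, 0.0095, 0.0096, 0.0086 and 0.0072 and Irf1 at 0.0089, 0.0082 and 0.0079 (DESeq2, shrunken, RLE and, for Ddx58, limma-voom and block). On RPKM at 0.1 and 1, Ifnar1 was at -0.0928 and -0.0798, Ifnar2 at -0.0341 and -0.0326, Ifngr1 at -0.0657 and -0.0631, Ifngr2 at -0.0188 and -0.0161, Irf9 at -0.0004 and -0.0007 and Stat2 at -0.1031 and -0.0907. With the immunoglobulin covariate Gbp4 was at 0.0585, Gbp9 at 0.011 and Irf1 at 0.0245. With limma-voom and the block Ifnar1 was at -0.0255 and -0.026 and Stat2 at -0.0324 and -0.0358. With a library left out the ranges were Ddx58 -0.1693 to 0.1185, Gbp1 -0.1418 to 0.3405, Gbp2 -0.4166 to 0.0532, Gbp4 -0.8825 to 0.0457, Gbp9 -0.6184 to 0.1462, Ifnar1 -0.2736 to 0.1521, Ifnar2 -0.0506 to 0.1094, Ifngr1 -0.0978 to 0.128, Ifngr2 -0.1858 to 0.2379, Irf1 -0.0733 to 0.0547, Irf9 -0.0408 to 0.1368, Oasl2 -0.2924 to 0.1224 and Stat2 -0.3193 to 0.2292.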
